A study of Mus musculus with 11 samples.

Results

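The genes described here are those of the tumor necrosis factor (TNF) superfamily and of the NF-kB pathway in mouse colon. They were taken by name from the deposited count table: the TNF ligands and receptors, the TRAF adaptors, the TNF-induced Tnfaip genes, the 5 NF-kB subunits and the inhibitors of NF-kB. Of 62 names that matched, 58 had at least 10 reads in at least 5 of the 11 mice and are called members below. All 58 were among the 19863 genes tested, out of 43346 genes in the table. The 4 names below that limit were Tnfsf4 with 0 to 12 reads per mouse, Tnfsf18 with 0 to 6, Cd70 with 0 to 1 and Cd40lg with 0 to 16. In 50 members every mouse had 10 or more reads. The members Tnfrsf8, Tnfrsf9 and Tnfrsf17 had 10 reads in only 2, 3 and 2 of the germ-free mice and in all 6 humanized mice, so they passed mainly through the humanized group.

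Colonic RNA came from male Swiss Webster mice of 8 to 10 weeks, 5 of them germ-free and 6 humanized. Humanized mice were raised germ-free, were given 300 μL of human stool suspension by gavage at 4 to 5 weeks of age, and kept that microbiota until they were studied. All humanized mice carried the microbiota of 1 donor, so colonization in general and this donor's microbiota cannot be told apart. The labels and methods mention no sham gavage of the germ-free mice. Between 49097005 and 64148538 reads per germ-free mouse fell on genes, against 39125290 to 54219854 per humanized mouse, and members held 0.131 to 0.158% of them. Colonic epithelial markers were present in every mouse, with a summed level of 9290 to 12500 CPM (read counts scaled to library size) in germ-free and 10600 to 14900 in humanized mice. Markers of other cell types differed between the groups. All 8 smooth muscle markers were lower in humanized mice, with summed levels of 796 to 2290 CPM in germ-free and 92.7 to 823 in humanized mice, and so were 5 of 6 fibroblast markers (782 to 1110 against 73 to 579 CPM) and 5 of 5 enteric neuron and glia markers (13.9 to 21.2 against 2.55 to 6.11 CPM). The 5 endothelial markers gave 89 to 104 against 12.9 to 86.7 CPM, and none of them passed the test. Higher were 5 of 7 T cell markers, 3 of 4 plasma cell markers, 1 of 7 myeloid markers (Cd14) and 3 of 11 epithelial markers (Krt18, Lgals4 and Elf3); the epithelial markers had a median LFC of 0.27. In whole tissue, fewer cells of a type and less RNA per cell cannot be told apart.

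TNF ligands are trimers that cross-link their receptors on neighboring cells. The bound receptors recruit TRAF adaptors or death domain proteins, and many of them release the NF-kB subunits from their inhibitors in the cytoplasm, so that these enter the nucleus and switch on genes with kappaB sites. Several of the targets are themselves inhibitors of the pathway, which closes a feedback loop. In the gut this family is known for inflammation, for the lymphoid tissue of the mucosa, for the M cells over it, and for the survival of the plasma cells that secrete IgA. Log2-fold changes (LFC) below are of humanized over germ-free mice, with a standard error (SE), and genes were called at a false discovery rate (FDR) below 0.01 over all genes tested with edgeR's exact test. Expression levels are RPKM, read counts per kilobase of gene length scaled to library size, given as mean ± SD (germ-free n = 5, humanized n = 6) where not listed per mouse.

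In humanized colon, 9 of the 58 members (15.5%) were higher, against 9.2% of all genes tested. Of these 9, Tnfrsf17 and Tnfrsf9 had passed the read limit mainly through the group in which they were high; 7 of the 9 were among the 50 members with 10 reads in every mouse. None was lower, against 10.1% of all genes. At an unadjusted p below 0.05 in the exact test, 11 members (19%) were lower, the same share as over all genes (19%). The quasi-likelihood test of edgeR also called 0 lower, against 6.53% of all genes, and DESeq2 called 1 lower, against 11%. The genes that rose were the ligands Tnf and Tnfsf13 and the receptors Tnfrsf17, Tnfrsf13b, Tnfrsf9, Tnfrsf1b and Tnfrsf11a. With them rose Nfkbiz, grouped by name with the NF-kB inhibitors, and Tnfsf13os, a transcript opposite to Tnfsf13. Tnfsf13 and Tnfsf13os share exon bases, so they are not independent counts. In 5 members (8.62%) every humanized mouse lay above every germ-free mouse, against 8.67% of all genes, so this share was at the background. No member had every humanized mouse below every germ-free mouse, against 9.73% of all genes. The number of members with groups apart was 8 without germ-free mouse 4 or humanized mouse 3 and 12 without humanized mouse 5. With fewer mice any gene overlaps less readily. The share of all genes apart was not computed for these sets, so these counts say nothing particular to the members. The number called lower was 2 without humanized mouse 3 (against 11.8% of all genes) and 3 without humanized mouse 5 (against 11.5%). The median LFC of the members was 0.06 and that of all genes tested 0.01, and 31 of 58 members had a positive LFC. The spread was wide, with LFC from −1.04 for Tnfaip6 to 3.32 for Tnfrsf17.

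Which scale the libraries were put on bears on the counts of members called. With total counts in place of TMM, 6 members were higher and 12 lower, against 3.89% and 18.2% of all genes, and with scaling to the 11 epithelial markers, 3 of which were themselves called higher, 5 were higher and 9 lower, against 2.47% and 14.1% of all genes. These scalings moved the median LFC of all genes tested to −0.18 and −0.24, and that of the members to −0.12 and −0.19. Tnfsf13, Nfkbiz, Tnfsf13os, Tnfrsf17 and Tnfrsf9 were called higher on each of these scales.

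**Figure D1:**
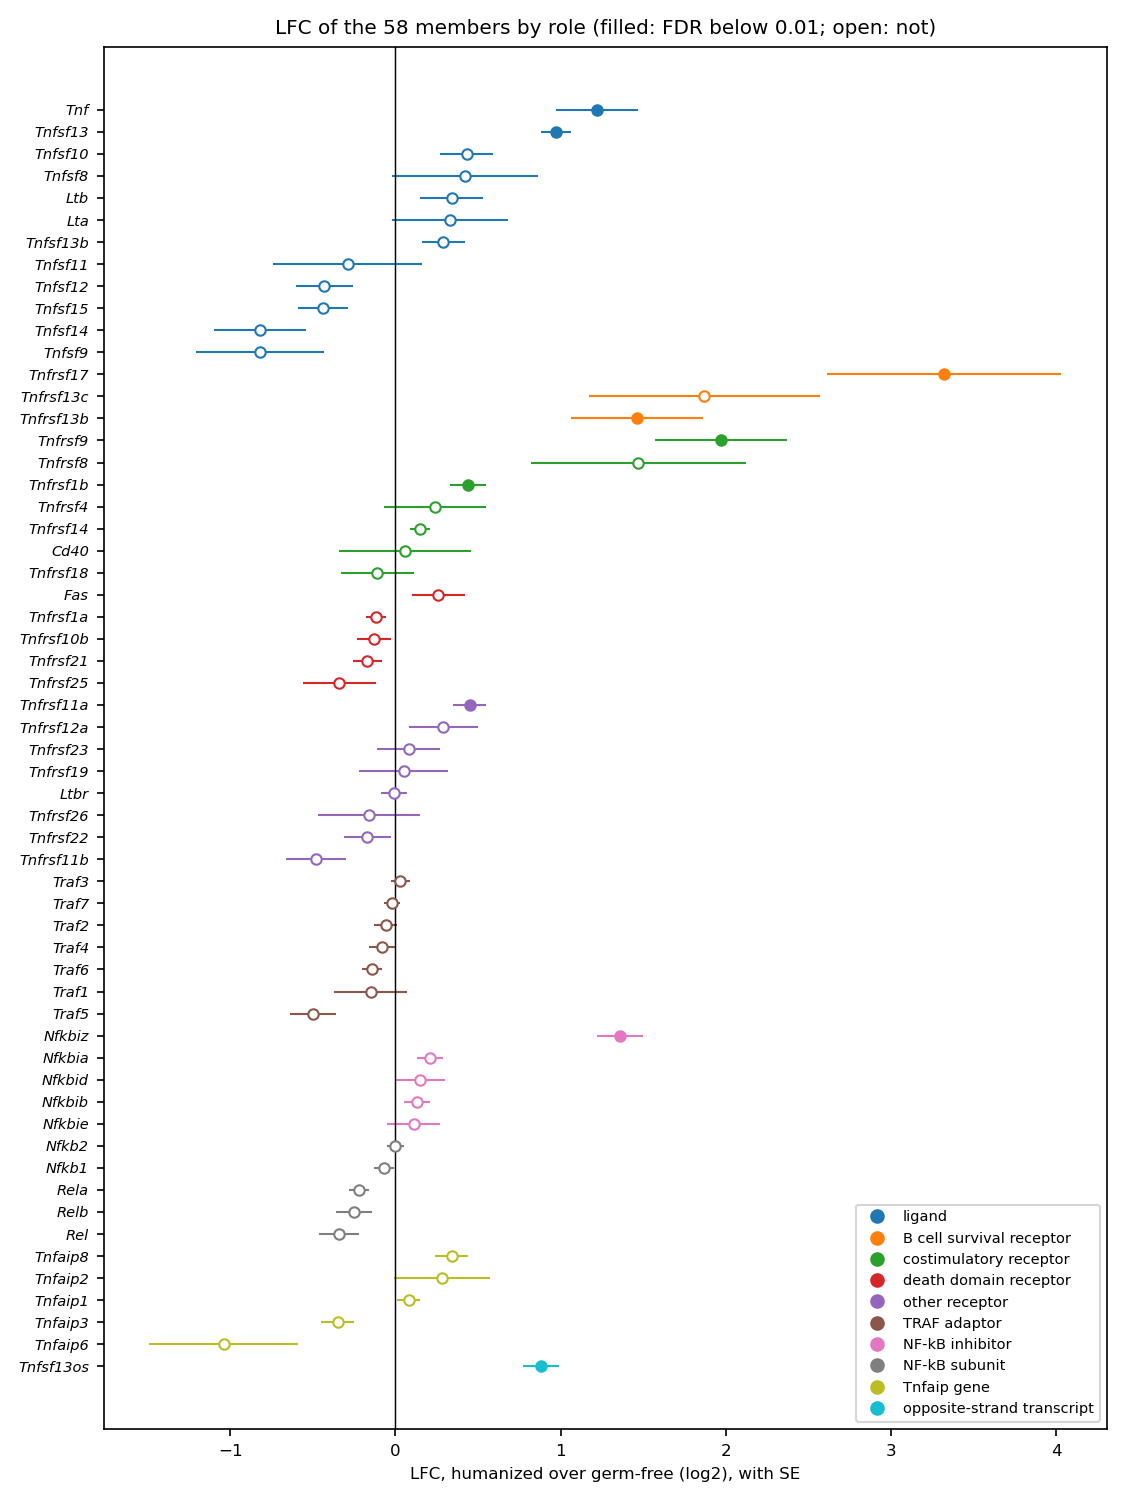
LFC of humanized over germ-free mice (log2, horizontal axis) for each of the 58 members, one row per gene, grouped and coloured by role; bars are SE and filled points passed FDR below 0.01. The 9 filled points lie between 0.44 for Tnfrsf1b and 3.32 for Tnfrsf17, while the TRAF adaptors, death domain receptors and NF-kB subunits hold open points only, from −0.50 to 0.26.

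Because NF-kB binds kappaB sites, the 300-base promoter windows of RefSeq (GRCm38.p6, 250 bases before to 50 after each start) were searched on both strands for the kappaB motif, a consensus of 10 bases; matches that overlap were joined. Windows were available for 46 of the 58 members, and 10 of these genes (21.7%) held a match in a window. In the whole set of promoter windows, 5.14% of 27025 genes and 4.51% of 32851 windows held one. The 12 members not searched were Cd40, Nfkb1, Nfkbiz, Relb, Tnfaip8, Tnfrsf10b, Tnfrsf11b, Tnfrsf22, Tnfrsf26, Tnfsf12, Tnfsf13os and Tnfsf9. The 10 genes were Nfkbia, Nfkbid, Nfkbie, Nfkb2, Rel, Tnfaip3, Traf3, Ltb, Tnfrsf8 and Tnfrsf9. Of the called members with a window, 1 of 7 (Tnfrsf9) held a match, as did 9 of 39 of the other members (23.1%). The windows of Tnf and Tnfsf13 held none, which says only that these letters do not occur there. Starts are those of RefSeq. The starts of the matched windows of Tnfrsf9 and Tnfaip3 lie inside the counted genes (chr4:150914562-150946102 and chr10:19000910-19015657). The 250 bases before the start are shown 5′ to 3′ for Tnfrsf9, the called member with a match, and for the feedback inhibitors Nfkbia and Tnfaip3, which were not called, with the matches in capitals.
Tnfrsf9, chr4:150927749-150927998, plus strand: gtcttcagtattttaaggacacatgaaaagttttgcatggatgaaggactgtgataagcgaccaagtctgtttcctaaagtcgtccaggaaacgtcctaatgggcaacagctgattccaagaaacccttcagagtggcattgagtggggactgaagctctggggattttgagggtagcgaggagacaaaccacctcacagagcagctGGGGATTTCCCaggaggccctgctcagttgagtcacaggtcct
Nfkbia, chr12:55492648-55492897, minus strand: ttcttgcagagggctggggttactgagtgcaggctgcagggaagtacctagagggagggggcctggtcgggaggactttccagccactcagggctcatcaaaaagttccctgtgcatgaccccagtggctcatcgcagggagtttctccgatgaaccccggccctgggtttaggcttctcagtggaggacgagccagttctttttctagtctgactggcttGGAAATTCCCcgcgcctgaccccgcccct
Tnfaip3, chr10:19015411-19015660, minus strand: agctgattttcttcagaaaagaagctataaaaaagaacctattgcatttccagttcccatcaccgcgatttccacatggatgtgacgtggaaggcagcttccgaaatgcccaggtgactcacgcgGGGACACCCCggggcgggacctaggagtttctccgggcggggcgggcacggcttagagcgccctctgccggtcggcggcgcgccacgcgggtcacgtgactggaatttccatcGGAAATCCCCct

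The subunit genes Nfkb2 and Rel and the ligand gene Ltb also held matches, Nfkb2 at 4 places over its windows. Matches close to a start are shown with 10 bases on each side, as examples from genes of the pathway's own core, at 39 and 11 bases before a start of Nfkb2, 92 before that of Rel and 87 before that of Ltb. A match is a description of the sequence and not evidence of binding.
Nfkb2, chr19:46304698-46304708, plus strand: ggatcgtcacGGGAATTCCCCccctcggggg
Nfkb2, chr19:46304726-46304735, plus strand: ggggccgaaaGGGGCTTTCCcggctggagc
Rel, chr11:23771051-23771061, minus strand: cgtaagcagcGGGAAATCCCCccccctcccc
Ltb, chr17:35194420-35194429, plus strand: aagggtgttcGGAAAGTCCCcgggcagggg

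Among the 12 ligands, 2 were higher and 10 were not called. Tnfsf13 encodes APRIL, which binds TACI and BCMA on B lineage cells and is known for sustaining IgA plasma cells. It was the ligand with the highest RPKM in both groups. Its level in germ-free mice was 12.5, 15.3, 14.3, 13.3 and 13.9 RPKM, and in humanized mice 27.2, 31.5, 24.9, 27.7, 29.9 and 22.1 RPKM. The groups lay far apart, with 13.9 ± 1.08 against 27.2 ± 3.39 RPKM, an LFC of 0.97 ± 0.09 (SE) and an FDR of 4.56e-18 in the exact test, and 6 of 6 humanized mice lay above every germ-free mouse.

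Tnfsf13 sits on chromosome 11 at 69682846 to 69685784 (mm10, minus strand). Its neighbor upstream is Tnfsf12 (69686250 to 69695849), which encodes TWEAK. A readthrough gene, Tnfsf12Tnfsf13, spans both (69682577 to 69696098), and Tnfsf13os lies on the opposite strand (69682138 to 69691141). In GENCODE M21, 60% of the exon bases of Tnfsf13, 48.3% of those of Tnfsf12 and 22.8% of those of Tnfsf13os are shared with another gene. The library kit does not mark strand and the counting rule for shared bases was not given in the sources used here, so reads of these genes cannot be fully told apart and their separate values are uncertain.

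Tnfsf13os had 4.60, 5.48, 5.24, 5.46 and 4.67 RPKM in germ-free mice and 9.11, 11.3, 9.05, 9.45, 9.85 and 7.63 RPKM in humanized mice (LFC 0.88 ± 0.11, exact test FDR 3.34e-08). It moved in step with Tnfsf13: the ratio of Tnfsf13 to Tnfsf13os was 2.73 ± 0.19 in germ-free and 2.90 ± 0.111 in humanized mice. The part of shared reads in this was not tested. The readthrough gene, which is no member, was also higher, at 10.8 ± 0.393 against 16.8 ± 1.67 RPKM (LFC 0.65 ± 0.07, exact test FDR 4.01e-11). Tnfsf12 was not called, with 6.07 ± 0.738 against 4.50 ± 1.13 RPKM, an LFC of −0.43 ± 0.17 and an FDR of 0.0763. Within each mouse the level of Tnfsf13 was thus 1.93 to 3.14 times that of Tnfsf12 in germ-free colon and 3.91 to 10.2 times in humanized colon. Without humanized mouse 3, Tnfsf12 was called lower (LFC −0.56, exact test FDR 0.00684).

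Tnfsf13b encodes BAFF, the sister ligand of APRIL that keeps mature B cells alive. Its RPKM was 4.40, 3.57, 4.47, 4.63 and 5.21 in germ-free mice and 5.53, 6.02, 5.67, 5.72, 5.59 and 4.21 in humanized mice. Humanized mouse 6 lay inside the germ-free range while the other 5 lay above it, and the LFC of 0.29 ± 0.13 had an FDR of 0.192. The ratio of Tnfsf13 to Tnfsf13b was 2.66 to 4.29 in germ-free and 4.40 to 5.35 in humanized colon, a description of values already given.

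Tnf itself, the inflammatory cytokine that names the family, was a low-level transcript with 20 to 31 reads per germ-free and 25 to 64 per humanized mouse. In RPKM it stood at 0.213, 0.256, 0.209, 0.303 and 0.271 in germ-free mice and at 0.465, 0.690, 0.824, 0.659, 0.321 and 0.548 in humanized mice. The groups did not overlap, though humanized mouse 5 came close to the highest germ-free mouse. The LFC was 1.22 ± 0.25 with an FDR of 0.000181 in the exact test. The call was lost with scaling to epithelial markers (LFC 1.01, exact test FDR 0.0175) and in a fit with the mouse number as a replicate block. The neighbors of Tnf in the same cluster, Lta and Ltb, encode the lymphotoxins that organize lymphoid tissue. Lta stood at 0.359 ± 0.128 against 0.451 ± 0.193 RPKM (LFC 0.33 ± 0.35, FDR 0.58) and Ltb at 2.78 ± 0.441 against 3.52 ± 1.03 RPKM (LFC 0.34 ± 0.19, FDR 0.267). Ltb was highest in humanized mice 2 and 3, with 4.07 and 5.36 RPKM, against 2.68 to 3.19 in the other humanized mice.

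The other ligands were not called; with total counts Tnfsf14 (LFC −1, exact test FDR 0.0095) and Tnfsf15 (LFC −0.63, FDR 0.00358) were called lower. Tnfsf10, the death ligand TRAIL, had the next highest level of the ligands at 10.0 ± 1.39 against 13.5 ± 3.37 RPKM (LFC 0.43 ± 0.16, exact test FDR 0.0318). Tnfsf14, which encodes LIGHT and binds HVEM and the lymphotoxin β receptor, had 0.381 ± 0.0845 against 0.214 ± 0.0781 RPKM (LFC −0.82 ± 0.28, FDR 0.0223). Tnfsf9, the ligand of Tnfrsf9, had the same LFC of −0.82 with a larger SE of 0.39 (FDR 0.119), from 26 to 65 reads per germ-free and 6 to 32 per humanized mouse. Tnfsf15, the ligand of Tnfrsf25, had 1.49 ± 0.289 against 1.1 ± 0.139 RPKM (FDR 0.0568). Tnfsf11 encodes RANKL, known in the gut for inducing M cells, and Tnfsf8 the ligand of Tnfrsf8; with 4 to 75 and 10 to 72 reads per mouse their LFC of −0.29 ± 0.45 and 0.42 ± 0.44 were smaller than their SE or about equal to it.

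**Figure D2:**
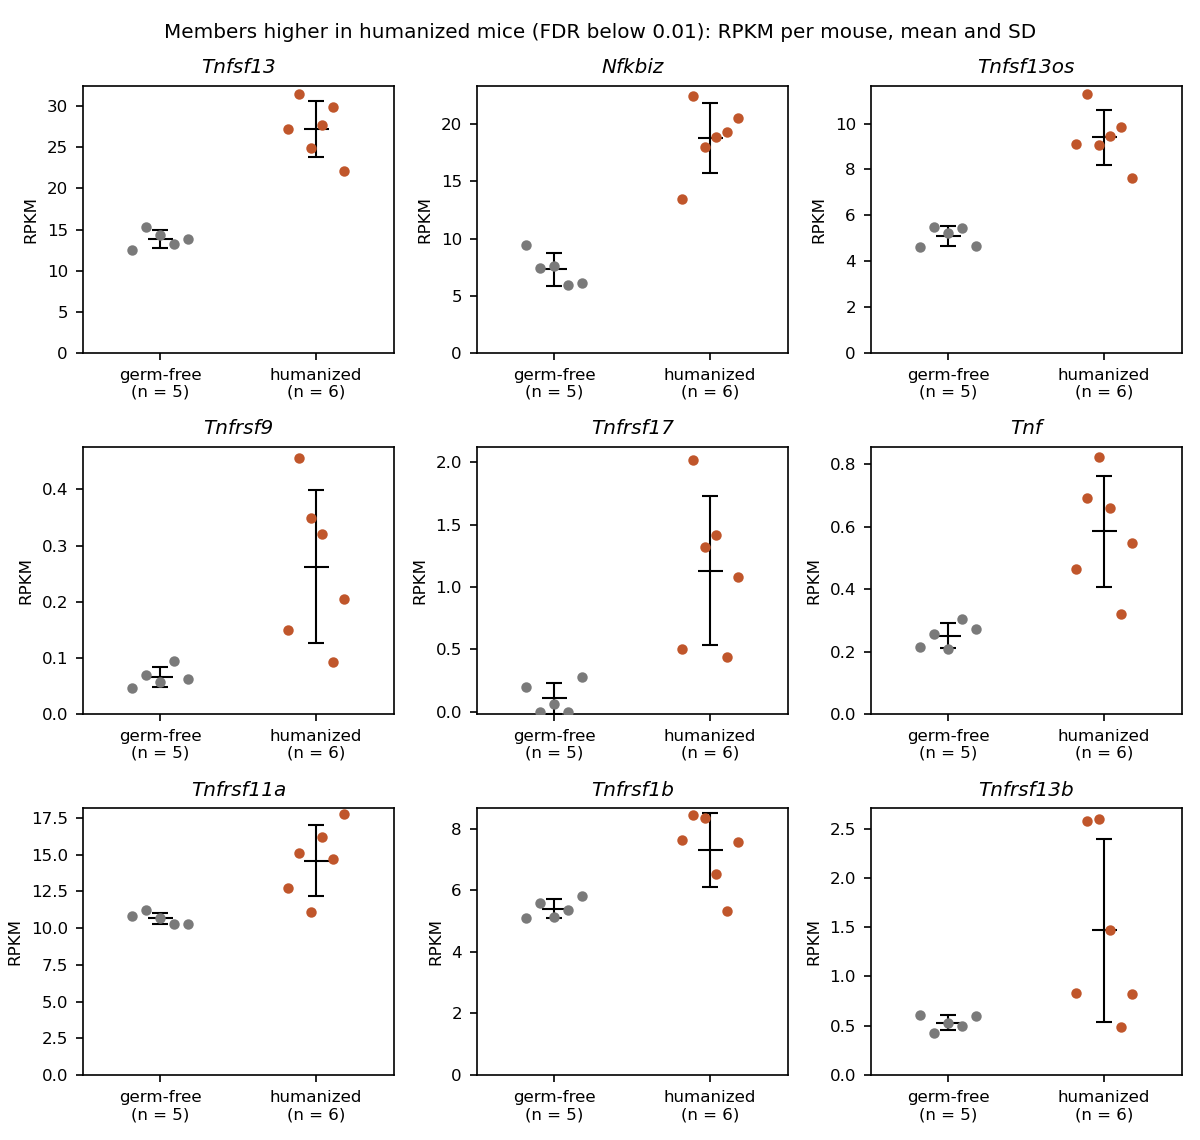
RPKM (vertical axes, each starting at or just below 0) of the 9 members higher in humanized mice at FDR below 0.01; each point is 1 mouse (grey germ-free, n = 5; orange humanized, n = 6), and bars show mean and SD. The groups are apart for Tnfsf13, Nfkbiz, Tnfsf13os, Tnfrsf17 and Tnf, while 1 humanized mouse lies within the germ-free range for each of Tnfrsf9, Tnfrsf11a, Tnfrsf1b and Tnfrsf13b.

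The 3 receptors of APRIL and BAFF mark the B lineage, and 2 of them were higher. Tnfrsf17 encodes BCMA, the receptor of plasma cells. It had 0 to 16 reads per germ-free mouse and 15 to 61 per humanized mouse, or 0.195, 0, 0.0629, 0 and 0.281 RPKM against 0.501, 2.02, 1.32, 1.42, 0.439 and 1.08 RPKM. The groups did not overlap, and 2 of 5 germ-free mice had no read at all. Its LFC of 3.32 ± 0.71 (exact test FDR 0.000111) was the highest of the members, and rests on few reads. The 4 plasma cell markers were Jchain, Mzb1, Sdc1 and Derl3. Their summed level was 256 to 327 CPM in germ-free and 457 to 1270 CPM in humanized colon, also with no overlap. Most of the germ-free sum was Sdc1, with 12345 to 16099 reads per germ-free mouse against 1046 to 6546 for Jchain. Sdc1 was not called (LFC 0.14, exact test FDR 0.353). The other 3 markers, Jchain, Mzb1 and Derl3, were called higher, with LFC of 3.21, 3.49 and 2.28. The part of plasma cells in the result for Tnfrsf17 was not tested.

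Tnfrsf13b encodes TACI, shared by APRIL and BAFF. It had 0.610, 0.424, 0.525, 0.497 and 0.600 RPKM in germ-free mice and 0.835, 2.58, 2.60, 1.47, 0.490 and 0.823 RPKM in humanized mice, so that 5 of 6 humanized mice lay above every germ-free mouse and humanized mouse 5 lay within their range. Its LFC was 1.46 ± 0.40 with an exact test FDR of 0.00308. The call was lost with the quasi-likelihood test (FDR 0.0172), total counts (FDR 0.0138) and scaling to epithelial markers (FDR 0.0284). Tnfrsf13c, the BAFF receptor of mature B cells, was not called (LFC 1.87 ± 0.70, FDR 0.0295). Humanized mice 2 and 3 had 2.12 and 2.58 RPKM of Tnfrsf13c, and the other 4 had 0.198 to 0.366, beside a germ-free range of 0.152 to 0.365.

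The same pair of mice stood out in 7 B cell markers (Cd79a, Cd79b, Ms4a1, Pax5, Cd22, Cr2 and Fcer2a), whose summed level was 32.5 and 42.3 CPM there, 5.87 to 10.2 CPM in the other 4 humanized mice and 5.29 to 10.5 CPM in germ-free mice. Both mice were also above all others in the summed T cell markers (31.8 and 28.9 against 9.59 to 20.7 CPM), plasma cell markers (1270 and 1090 against 256 to 810 CPM) and myeloid markers (367 and 382 against 169 to 275 CPM). The myeloid sum joins markers of both signs. Cd68, Adgre1 and Csf1r had LFC of −0.74, −0.67 and −0.53, and Itgax, Lyz2, Itgam and Cd14 had 0.19, 0.39, 0.1 and 0.7. Of these markers Cd14 alone was called. Of the 7 B cell markers 1 was called higher in humanized mice, and no marker was at 0 in all mice of a group. Without humanized mice 2 and 3, an alternative chosen after seeing the data, Tnfrsf13b had an LFC of 0.76 and was not called (FDR 0.0438), while 7 of the 9 members remained called, Tnfrsf17 among them. Leaving out humanized mouse 2 alone was enough to end the call of Tnfrsf13b (LFC 1.22, FDR 0.0135), as was leaving out germ-free mouse 2, 3 or 4 (FDR 0.0136 to 0.0165). Without the pair 3 members were called lower, against 11.8% of all genes, the TWEAK gene Tnfsf12, Tnfsf9 and the adaptor Traf5. The part of B, T, plasma or myeloid cell number in these values was not tested.

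**Figure D3:**
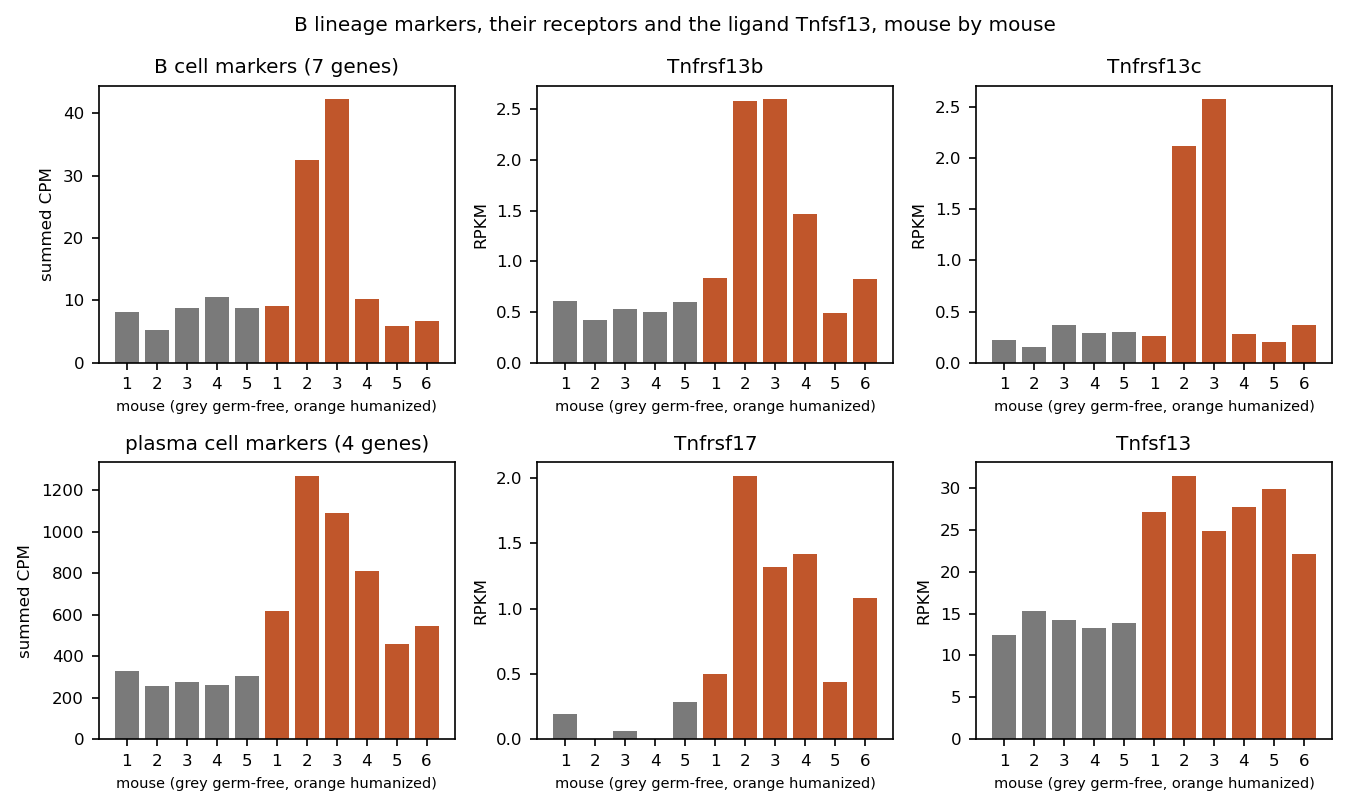
Summed CPM of 7 B cell and 4 plasma cell markers and RPKM of Tnfrsf13b, Tnfrsf13c, Tnfrsf17 and Tnfsf13, 1 bar per mouse (grey germ-free 1 to 5, orange humanized 1 to 6). Humanized mice 2 and 3 are high in B cell markers, with 32.5 and 42.3 CPM, and in Tnfrsf13c, whereas Tnfsf13 is between 22.1 and 31.5 RPKM in all humanized mice.

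Of 7 lymphocyte costimulatory receptors 2 were higher. Tnfrsf9, an inducible receptor of activated T cells, had 8 to 16 reads per germ-free and 12 to 46 per humanized mouse, or 0.0466, 0.0702, 0.0565, 0.0941 and 0.0631 RPKM against 0.150, 0.455, 0.349, 0.321, 0.0928 and 0.205 RPKM. Humanized mouse 5 fell just under the highest germ-free mouse and the other 5 lay above all of them (LFC 1.97 ± 0.40, exact test FDR 6.71e-05). The promoter window printed above for Tnfrsf9 is the one with a kappaB match 43 bases before a RefSeq start that lies inside the counted gene. T cell markers were higher as well, with a summed level of 9.59 to 12.8 CPM in germ-free and 14.7 to 31.8 CPM in humanized mice, and the part of T cells in this result was not tested.

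Tnfrsf1b, the TNF receptor of lymphoid and myeloid cells, showed a small rise with 5.10, 5.57, 5.14, 5.37 and 5.82 RPKM in germ-free mice and 7.62, 8.45, 8.35, 6.54, 5.31 and 7.56 RPKM in humanized mice. Here too humanized mouse 5 lay within the germ-free range (LFC 0.44 ± 0.11, exact test FDR 0.00291). This call was lost in 12 of 23 alternatives, among them the quasi-likelihood test (FDR 0.011), total counts (FDR 0.16), scaling to epithelial markers (FDR 0.398), and leaving out humanized mouse 1 (FDR 0.0108), humanized mouse 2 (FDR 0.012) or germ-free mouse 1, 3 or 4 (FDR 0.0125 to 0.0156). Tnfrsf14, the receptor HVEM of LIGHT, was the most abundant of this class at 19.6 ± 1.19 against 21.7 ± 1.18 RPKM and was not called (LFC 0.15 ± 0.06, FDR 0.18). Cd40, the receptor on antigen-presenting cells that takes T cell help, had 0.361 ± 0.082 against 0.378 ± 0.249 RPKM, and among humanized mice its level ran from 0.0989 in mouse 5 to 0.824 in mouse 3. Tnfrsf8, Tnfrsf4 and Tnfrsf18, receptors of activated or regulatory T cells, had LFC of 1.47 ± 0.65, 0.24 ± 0.31 and −0.11 ± 0.22 and were not called; without germ-free mouse 4, Tnfrsf8 was called higher (LFC 2.15, exact test FDR 0.0081).

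None of the 5 death domain receptors was called, at LFC between −0.34 and 0.26 and FDR of 0.215 or more. Tnfrsf1a, the TNF receptor of most cells, is abundant in colon and stood at 28.4 ± 1.61 against 26.2 ± 1.90 RPKM (LFC −0.12 ± 0.06, exact test FDR 0.239). Its RPKM was 26.9, 29.1, 26.9, 28.7 and 30.7 in germ-free mice and 27.2, 23.9, 24.8, 27.0, 25.1 and 29.0 in humanized mice; humanized mice 2, 3 and 5 lay below every germ-free mouse and the other 3 within the germ-free range. Fas, which triggers apoptosis when its ligand binds, had 7.35 ± 0.943 against 8.82 ± 2.22 RPKM (LFC 0.26 ± 0.16, FDR 0.277), and the highest value was the 12.9 RPKM of humanized mouse 5. Tnfrsf21 (23.2 ± 1.79 against 20.6 ± 2.82 RPKM), the TRAIL receptor Tnfrsf10b (2.48 ± 0.181 against 2.26 ± 0.207 RPKM) and Tnfrsf25 (1.49 ± 0.383 against 1.18 ± 0.291 RPKM) had negative LFC that did not pass the test. Tnfrsf1a and Tnfrsf21 were called lower with total counts (LFC −0.31 and −0.36) and with scaling to epithelial markers (LFC −0.37 and −0.43).

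Of the 8 other receptors, Tnfrsf11a was higher. It encodes RANK, the receptor of RANKL, and had 10.8, 11.2, 10.7, 10.3 and 10.3 RPKM in germ-free mice and 12.7, 15.1, 11.1, 16.2, 14.7 and 17.8 RPKM in humanized mice. Germ-free values were tight, and 5 of 6 humanized mice exceeded all of them (LFC 0.45 ± 0.10, exact test FDR 0.000483). The call was lost with total counts (LFC 0.27, FDR 0.0534) and with scaling to epithelial markers (LFC 0.19, FDR 0.246). Tnfrsf11b encodes osteoprotegerin, the soluble decoy that captures RANKL, and had 2.02 ± 0.417 against 1.45 ± 0.306 RPKM (LFC −0.48 ± 0.18, FDR 0.0711). The ratio of Tnfrsf11a to Tnfrsf11b was 5.49 ± 1.24 in germ-free and 10.4 ± 2.56 in humanized mice, where humanized mouse 3 with 6.52 lay within the germ-free values.

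Ltbr, the lymphotoxin β receptor, had the highest RPKM of the members and scarcely differed in mean, at 43.4 ± 1.95 against 42.9 ± 4.73 RPKM (LFC −0.01 ± 0.08, exact test FDR 0.93). Tnfrsf12a, the TWEAK receptor, had 6.02 ± 1.75 against 7.34 ± 1.56 RPKM (FDR 0.398), and Tnfrsf19, known as a Wnt target of intestinal stem cells, 1.26 ± 0.36 against 1.31 ± 0.514 RPKM (FDR 0.937). The mouse decoy receptors Tnfrsf22 and Tnfrsf23 and their neighbor Tnfrsf26 had LFC of −0.17 ± 0.14, 0.08 ± 0.19 and −0.16 ± 0.31; as close relatives their reads may be partly shared.

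TRAF adaptors carry receptor signals onward, and none of the 7 genes was called, with LFC between −0.50 and 0.03. Traf2, the adaptor of the TNF receptors, had 5.00 ± 0.269 against 4.79 ± 0.397 RPKM (LFC −0.06 ± 0.07, exact test FDR 0.661). Traf3, which restrains the noncanonical NF-kB arm, had 5.87 ± 0.193 against 5.98 ± 0.445 RPKM (LFC 0.03 ± 0.06, FDR 0.842). Traf6, which serves Toll-like and interleukin receptors as well, had 6.43 ± 0.254 against 5.83 ± 0.494 RPKM (LFC −0.14 ± 0.06, FDR 0.164), and the lymphoid adaptor Traf1 1.54 ± 0.357 against 1.39 ± 0.448 RPKM (FDR 0.703). Traf5 came nearest the threshold. Its RPKM was 1.84, 1.48, 1.81, 1.65 and 1.36 in germ-free mice and 0.990, 1.34, 1.37, 1.29, 0.922 and 1 in humanized mice, so the groups overlapped only at germ-free mouse 5 and humanized mouse 3 (LFC −0.50 ± 0.14, FDR 0.0164). Traf5 was called lower without humanized mouse 3 (LFC −0.56, FDR 0.00827), with 10 reads required in every mouse (FDR 0.00874) and with DESeq2 (FDR 0.00309). Traf4 and Traf7 had LFC of −0.08 ± 0.08 and −0.02 ± 0.05. With total counts Traf4, Traf5 and Traf6 were called lower (LFC −0.27, −0.67 and −0.33), and with scaling to epithelial markers Traf4 and Traf6 (LFC −0.34 and −0.40).

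Of the 5 genes named as NF-kB inhibitors 1 was higher. Nfkbiz encodes IkB zeta, an inducible nuclear protein that binds NF-kB at a subset of its target genes. The name of the class does not mean that a rise of Nfkbiz inhibits NF-kB. It had 9.47, 7.40, 7.62, 5.95 and 6.11 RPKM in germ-free mice and 13.5, 22.5, 18, 18.9, 19.3 and 20.5 RPKM in humanized mice. All 6 humanized mice lay above all 5 germ-free mice (7.31 ± 1.42 against 18.8 ± 3.02 RPKM, LFC 1.36 ± 0.14, exact test FDR 1.85e-17). Nfkbiz kept its call in each of the 23 alternatives, and Tnfsf13 and Tnfsf13os lost theirs in 1, the limit of an absolute LFC above 1.

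The cytoplasmic inhibitors did not follow it past the threshold. Nfkbia, the classical IkB alpha, was the most abundant inhibitor with 35.1, 32.2, 31.5, 27.3 and 26.6 RPKM in germ-free mice and 31.6, 35.2, 33.8, 36.3, 38.3 and 37.0 RPKM in humanized mice. These ranges overlapped (LFC 0.21 ± 0.08, exact test FDR 0.0648). Its window above carries the kappaB match 29 bases before the start. In the same libraries the ratio of Nfkbiz to Nfkbia was 0.218 to 0.270 in germ-free and 0.427 to 0.639 in humanized mice. Nfkbib had 8.73 ± 0.419 against 9.54 ± 1.07 RPKM (LFC 0.13 ± 0.08, FDR 0.394) and Nfkbie 2.66 ± 0.238 against 2.87 ± 0.666 RPKM (LFC 0.11 ± 0.16, FDR 0.719). Nfkbid, another nuclear member of this family, had 1.18 ± 0.136 against 1.31 ± 0.24 RPKM (LFC 0.15 ± 0.15), also not called. The positive signs of these 4 genes turned with scaling to epithelial markers (LFC −0.05, −0.13, −0.10 and −0.08).

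None of the 5 NF-kB subunits was called, and none had a positive LFC beyond 0.00. Nfkb1, the precursor of the small subunit p50, had 21.5, 23.0, 21.8, 23.4 and 23.0 RPKM in germ-free mice and 20.6, 19.8, 19.3, 21.9, 23.5 and 23.3 RPKM in humanized mice (LFC −0.07 ± 0.06, exact test FDR 0.518). Nfkb2, the precursor of the noncanonical arm, had a mean of 13.9 RPKM in both groups, with SD of 0.532 and 0.78 (FDR 0.993). Rela, the main transactivating subunit, had 15.7, 17.7, 17.1, 18 and 16.7 RPKM in germ-free and 15.7, 13.0, 13.7, 14.7, 16.1 and 14.7 RPKM in humanized mice. Only humanized mice 1 and 5 reached the germ-free range (LFC −0.22 ± 0.06, FDR 0.0241). Rela was called lower with upper-quartile scaling (FDR 0.0023) and with 10 reads required in every mouse (FDR 0.00721). Relb and Rel, subunits used in lymphoid cells, had LFC of −0.25 ± 0.11 (FDR 0.119) and −0.34 ± 0.12 (FDR 0.0837). Rela, Relb, Rel and Nfkb1 were among the members called lower with total counts (LFC −0.41, −0.44, −0.53 and −0.26) and with scaling to epithelial markers (LFC −0.47, −0.52, −0.60 and −0.33), scales on which the median gene was shifted down as given above.

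None of the 5 Tnfaip genes was called, but Tnfaip3 and Tnfaip8 came close to the threshold in opposite directions. Tnfaip3 encodes A20, the enzyme that edits ubiquitin chains and shuts off NF-kB signaling, and its window above holds kappaB matches at 125 and 12 bases before the start. It had 6.68, 6.93, 6.51, 6.13 and 5.96 RPKM in germ-free mice and 4.20, 5.35, 4.57, 4.69, 6.65 and 4.89 RPKM in humanized mice. Humanized mouse 5 alone lay within the germ-free range (LFC −0.35 ± 0.10, exact test FDR 0.0104), and without it the gene was called lower (LFC −0.44, FDR 3.67e-06). It was also called lower with total counts (LFC −0.54, FDR 8.64e-06), scaling to epithelial markers (LFC −0.61, FDR 0.000225), upper-quartile scaling (FDR 0.00209) and 10 reads required in every mouse (FDR 0.00494). Tnfaip8, a regulator of cell death, had 3.68, 3.93, 3.67, 3.49 and 3.50 RPKM in germ-free mice and 5.14, 5.63, 4.76, 4.70, 4.07 and 3.54 RPKM in humanized mice, where mouse 6 lay within the germ-free range (LFC 0.34 ± 0.10, FDR 0.0112); without humanized mouse 6 it was called higher (LFC 0.40, FDR 0.000224), as it was without humanized mouse 5 (LFC 0.38, FDR 0.00352), with DESeq2 (FDR 0.00909) and in a fit with the mouse number as a replicate block (FDR 0.00789). Tnfaip6, a secreted hyaluronan-binding protein of stromal cells, had the lowest LFC of the members at −1.04 ± 0.45 (FDR 0.0781), with 0.792 ± 0.363 against 0.384 ± 0.225 RPKM. Fibroblast markers were lower in humanized mice as given above, and their part in this value was not tested. Tnfaip1 and Tnfaip2 had LFC of 0.08 ± 0.07 and 0.28 ± 0.29.

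**Figure D4:**
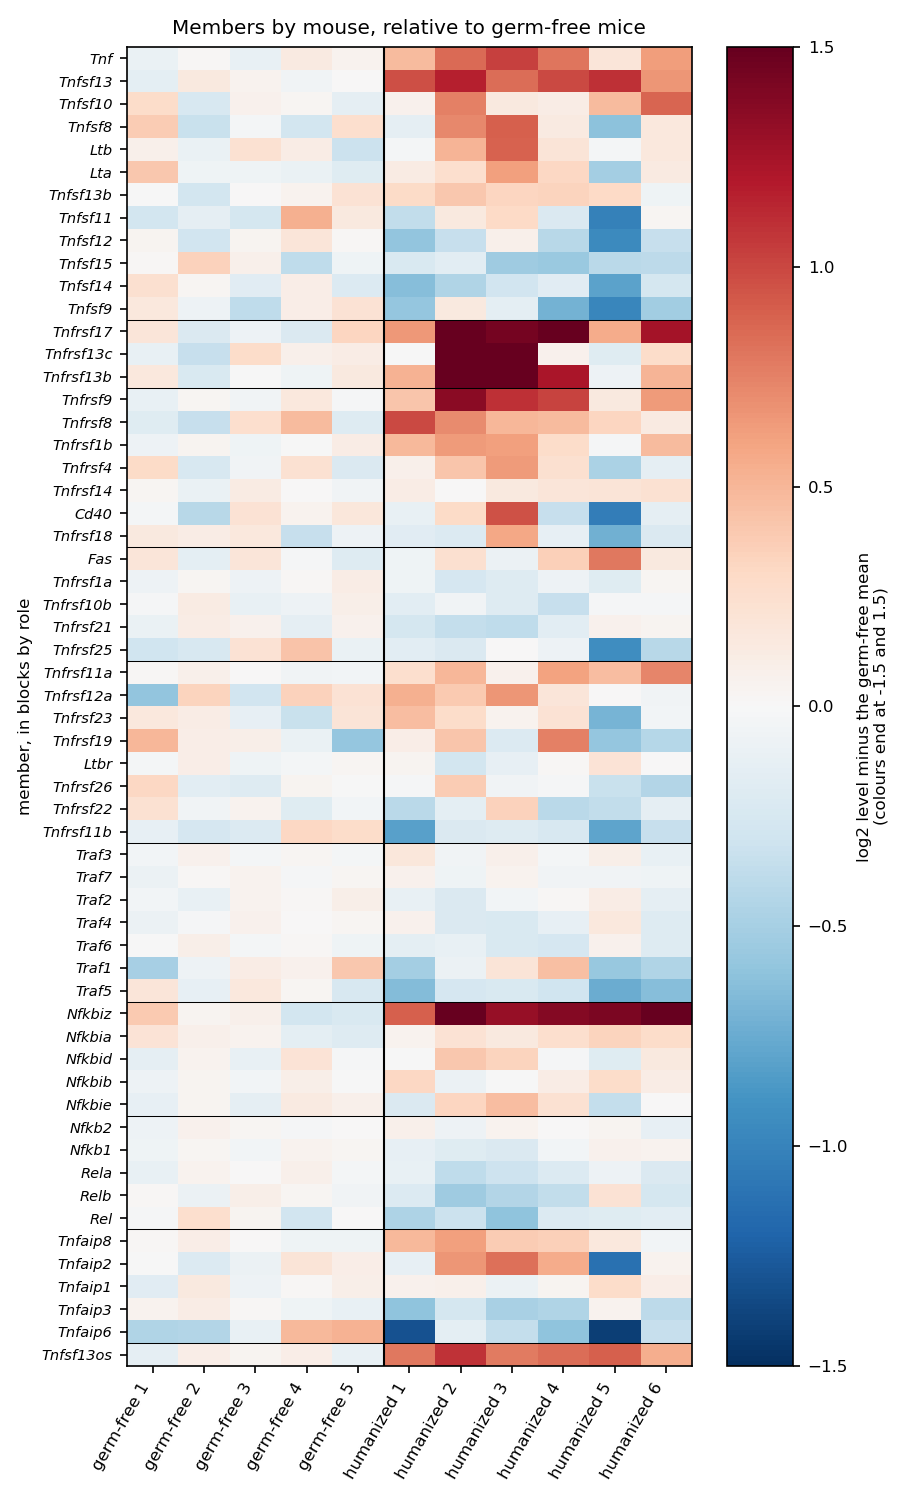
Level of each member in each mouse as log2 of CPM + 0.5 minus the mean of the germ-free mice, with red above and blue below it and colours ending at −1.5 and 1.5; rows are genes in blocks by role and columns are the 5 germ-free and 6 humanized mice. Nfkbiz, Tnfsf13 and Tnfsf13os are red in all 6 humanized mice, Tnfrsf13c is darkest in humanized mice 2 and 3, and Tnfaip6, Cd40 and Tnfaip2 are at their lowest in humanized mouse 5.

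Humanized mouse 5 recurred in these values. It had the lowest summed level of smooth muscle (92.7 CPM), fibroblast (73 CPM), endothelial (12.9 CPM) and myeloid (169 CPM) markers of the 11 mice, and the lowest B cell level of the humanized mice, and it was the humanized mouse with the lowest level of Tnf, Tnfrsf9, Tnfrsf13b and Tnfrsf1b. Without it, 3 members were called lower (Rela, Relb and Tnfaip3), against 11.5% of all genes, and 11 higher, against 9.52%, Tnfrsf13c and Tnfaip8 being added to the 9. Groups did not overlap in 12 members in place of 5, a count with no all-gene share to set beside it. Whether tissue makeup has a part in this was not tested.

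The pathway was also followed in 45 further genes outside the name rule, which act between receptor and nucleus or belong to related branches. All were tested; 9 were higher and 2 lower, against 9.2% and 10.1% of all genes, with a median LFC of 0.14. With total counts 4 were higher and 7 lower, against 3.89% and 18.2% of all genes, and with scaling to epithelial markers 2 were higher and 3 lower, against 2.47% and 14.1%. The lowest FDR belonged to Tnip3, whose product binds A20 (0.257 ± 0.045 against 0.892 ± 0.25 RPKM, LFC 1.79 ± 0.21, exact test FDR 6.88e-11). Ripk3, the kinase of necroptosis, rose from 6.15 ± 0.64 to 11.7 ± 1.80 RPKM (LFC 0.92 ± 0.11, FDR 4.03e-10), and the apoptotic protease gene Casp8 from 28.3 ± 2.75 to 39.7 ± 3.36 RPKM (LFC 0.49 ± 0.08, FDR 1.36e-06). The receptor adaptor Tradd, the kinase gene Ikbke, its regulator Tank, the apoptosis inhibitors Xiap and Birc3, and Bcl10 of the antigen receptor branch also rose, with LFC from 0.27 to 0.52. Of these 9 genes Tnip3 and Ripk3 alone were still called with scaling to epithelial markers, where Casp8 had an LFC of 0.24 (FDR 0.0639). The calls of Birc3 and Bcl10 were also lost with the quasi-likelihood test (FDR 0.0113 and 0.0122). The genes that fell were Eda, the ligand of skin appendage development (0.241 ± 0.0495 against 0.0602 ± 0.0322 RPKM, LFC −1.99 ± 0.33, FDR 1.62e-07), and Ngfr, the neurotrophin receptor of nerve and glia (0.983 ± 0.0625 against 0.333 ± 0.206 RPKM, LFC −1.56 ± 0.46, FDR 0.00569). The 5 enteric neuron and glia markers were lower in the same mice, and their part in the value of Ngfr was not tested. The call of Ngfr was lost with the quasi-likelihood test (FDR 0.023) and without humanized mouse 1, 2, 4 or 6 or any single germ-free mouse (FDR 0.0117 to 0.0191).

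Of 34 well-known NF-kB target genes 24 were tested, and 6 were higher and 1 lower, against 9.2% and 10.1% of all genes, with a median LFC of 0.27. Zc3h12a encodes Regnase, an RNase that degrades inflammatory mRNAs, and had 6.31 ± 0.477 against 19.9 ± 3.93 RPKM (LFC 1.65 ± 0.13, exact test FDR 1.22e-29). Irf1, a transcription factor of interferon responses, had 28.5 ± 1.74 against 46.1 ± 5.89 RPKM (LFC 0.70 ± 0.09, FDR 9.51e-11), and Ccl20, an epithelial chemokine that draws lymphocytes to lymphoid tissue, 0.685 ± 0.135 against 2.2 ± 0.676 RPKM (LFC 1.68 ± 0.23, FDR 1.35e-08). Irf8, Il1b and Saa3 were the other genes that rose; the calls of Il1b and Saa3 were lost with the quasi-likelihood test (FDR 0.0162 and 0.0298). The number of targets higher was 3 (Zc3h12a, Irf1 and Ccl20) without germ-free mouse 5 (against 7.47% of all genes) or with scaling to epithelial markers (2.47%). It was 4 with total counts (3.89%), upper-quartile scaling (7.87%) or the quasi-likelihood test (7.05%). Ccl21a, a chemokine of lymphatic vessels and lymphoid stroma, fell from 12.8 ± 1.84 to 6.04 ± 2.95 RPKM (LFC −1.08 ± 0.32, exact test FDR 0.00652). This call was lost with the quasi-likelihood test (FDR 0.0245) and on leaving out any single mouse but humanized mouse 3, 5 or 6 (FDR 0.0112 to 0.0287). Summed endothelial and fibroblast markers were lower in humanized mice as given above, and their part in the value of Ccl21a was not tested.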

How the data were processed

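Polyadenylated RNA of colon was sequenced in 11 mice. The authors aligned paired-end reads to mm10 with TopHat2 2.1.0 and Bowtie2 2.2.3 (versions per the submitters' processing notes), counted reads per gene with featureCounts (Subread 1.4.6-p5) and deposited raw counts, with gene positions and lengths, without normalization. The annotation release and the counting options for strand and shared bases were not given in the sources used here. Columns were assigned to groups by their labels, and no mouse was left out of the main comparison. Genes were filtered with filterByExpr (minimum count 10, minimum total count 15, large.n 10, minimum proportion 0.7), normalized with TMM and compared with the exact test of edgeR 4.0.16 in R 4.3.3 with Benjamini-Hochberg correction. This test, the filter and the FDR of 0.01 follow the study's methods. SE of LFC come from the quasi-likelihood fit. RPKM used TMM-normalized libraries and the deposited lengths. Promoter windows came from RefSeq; in 50 of 55 windows of members the bases after the start occurred in a GENCODE M21 transcript of the gene.

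The members, gene lists and markers were chosen with earlier results of these data known. Named by rule were every called member, a fixed list of main pathway genes, and of the pathway and target lists up to 3 genes per direction with the lowest FDR; all others were picked with their values in view. The alternatives were the quasi-likelihood test, DESeq2 1.42.0, RLE, upper-quartile, total-count and epithelial-marker scaling, an absolute LFC above 1, FDR below 0.05, no filter, 10 reads per mouse, a looser kappaB motif, leaving out each mouse, and a replicate block. Leaving out humanized mice 2 and 3 together was added after seeing the data. The tests were tried on simulated data. One gene of the marker lists is not reported here and entered no marker sum.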

Additional observations from a re-analysis of the deposited data

Results flagged for a closer look

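Of 116 sets tested (58 members in 2 groups), 4 held a value far from the rest of its group by Dixon's test; chance marks about 1 in 20 groups. Lta in germ-free mouse 1 was at 0.585 RPKM, with the next germ-free mouse at 0.321, a gap of 0.834 of the range. In humanized mice, Tnfsf13b in mouse 6 was at 4.21 RPKM with the next mouse at 5.53 (a gap of 0.731 of the range). Humanized mouse 3, one of the pair high in B cell markers, was at 4.35 RPKM of Tnfrsf18 with the next mouse at 2.53 (0.652 of the range), and at 4.15 RPKM of Tnfrsf22 with the next at 2.95 (0.695 of the range).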

How the results depend on the processing

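Of the 9 called members, Nfkbiz stayed called in each of 23 alternatives; Tnfrsf1b lost its call in 12 and Tnfrsf13b in 9 of 23, Tnfrsf11a in 4, Tnf in 2, Tnfsf13 and Tnfsf13os in 1 (an absolute LFC above 1), and Tnfrsf17 and Tnfrsf9 in 1 of the 22 in which they were tested. Members called lower, 0 in the main comparison, were 1 with DESeq2 (Traf5; 11% of all genes), 2 with upper-quartile scaling (Rela and Tnfaip3; 10.9%), 3 with 10 reads in every mouse (10.1%), 4 at FDR below 0.05 (14.6%), 12 with total counts (18.2%), 9 with epithelial scaling (14.1%) and 3 without humanized mice 2 and 3 (11.8%). Members called higher were 5 with epithelial scaling (2.47% of all genes) and 5 with an absolute LFC above 1 (2.04%). Groups were apart in 15 members with total counts, 11 with epithelial scaling and 10 without humanized mice 2 and 3. The share of all genes apart was not computed for these settings, so these counts have no background. The median LFC of members was −0.12, −0.19 and −0.02 in these 3 settings. Pathway genes outside the rule called higher were 4 with total counts (3.89% of all genes), 2 with epithelial scaling (2.47%) and 1 with an absolute LFC above 1 (2.04%). Called lower were 7 with total counts (18.2%), and 1 with the quasi-likelihood test (6.53%) or 10 reads in every mouse (10.1%). NF-kB targets called higher were 3 with epithelial scaling (2.47%), and called lower 0 with the quasi-likelihood test (6.53%). Leaving out 1 mouse at a time gave 7 to 11 members higher (6.69 to 10.6% of all genes) and 0 to 3 lower (7.45 to 11.8%). In these fits 5 to 12 members were apart, with no all-gene share computed. Pathway genes higher were 7 to 10 and lower 1 to 3, and targets higher 3 to 7 and lower 0 to 1.

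Mouse numbers are shared between the groups but mark different animals. Deviations of mice with the same number correlated at −0.133 to 0.091, and in 1 of 5 numbers the best correlation was with the same number. These few values do not show that mice of a number share anything else, and cannot exclude it. With the replicate block, which leaves out humanized mouse 6, 4 members were higher and 0 lower, against 2.54% of all genes in each direction. The 4 were Tnfsf13, Nfkbiz, Tnfsf13os and Tnfaip8. The other called members, Tnf, Tnfrsf17, Tnfrsf9, Tnfrsf11a, Tnfrsf13b and Tnfrsf1b, lost their calls there. In the same fit 3 pathway genes were higher and 1 lower, and 3 targets higher and 0 lower.

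Uncalled genes whose sign turned were Traf3 with upper-quartile scaling (LFC −0.01), total counts (−0.16) and epithelial scaling (−0.22); with total counts also Cd40 (−0.09), Nfkbib (−0.06), Nfkbie (−0.06), Nfkbid (−0.03), Tnfrsf14 (−0.03), Tnfrsf19 (−0.13), Tnfrsf23 (−0.11) and Tnfaip1 (−0.11); with epithelial scaling Cd40 (−0.09), Fas (−0.02), Nfkbia (−0.05), Nfkbib (−0.13), Nfkbie (−0.10), Nfkbid (−0.08), Tnfrsf14 (−0.10), Tnfrsf19 (−0.21), Tnfrsf23 (−0.16) and Tnfaip1 (−0.17); Cd40 with the block (−0.12); and without humanized mice 2 and 3 Ltbr (0.07), Cd40 (−0.57), Nfkbie (−0.07), Nfkbid (−0.02), Tnfrsf4 (−0.12), Tnfsf8 (−0.21) and Tnfaip2 (−0.05). Leaving out 1 mouse, Ltbr ranged from −0.06 to 0.03, Cd40 from −0.33 to 0.26, Tnfrsf26 from −0.39 to 0.01, Tnfrsf23 from −0.02 to 0.20 and Tnfrsf19 from −0.15 to 0.20. The cause of these changes was not tested. The looser kappaB motif was found in 12 of 46 members (26.1%), against 9.55% of all genes, in place of 10 (21.7%) against 5.14%.

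Depth limits the members with few reads (Tnfrsf17, Tnfrsf9, Tnfrsf8, Tnfaip6, Lta, Tnfsf9, Tnfsf11 and Tnfsf14 had fewer than 10 in some mouse). Levels of cell type markers differed between the groups, and tissue makeup cannot be told apart from changes within cells. RNA of whole colon says nothing of protein or of NF-kB activity.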
